A study of Homo sapiens with 2 samples.

Results

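Chromatin is opened, closed and marked by enzymes that add or remove methyl and acetyl groups on histones, that methylate or oxidise cytosine in DNA, and that move nucleosomes with the energy of ATP. Most of their transcripts come from long genes with many introns, each of which has to be removed by the spliceosome. SF3B1, the core of the SF3b complex in the U2 snRNP, clasps the branch site of the intron at an early step of that removal. The present set comprised 56 protein-coding genes of chromatin modifiers and remodellers, of 20046 protein-coding genes placed on a chromosome. The members were listed by name, with earlier results of these data known, and not every member is an enzyme. For example, ARID1A, ARID1B, SMARCC1, SMARCC2, BRD2, BRD3, BRD9, BAZ2A and NCOR1 encode subunits, readers or scaffolds of such complexes.

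The RNA contacts came from HITS-CLIP, in which ultraviolet light links a protein to the RNA it touches, an antibody recovers the complex and the RNA fragments are sequenced as tags. The cells were MDA-231-LM2, a subline of the breast cancer line MDA-MB-231 that was selected for metastasis to the lung, unmodified and untreated as far as the labels say. The 2 cultures formed a single group without a control or an input, and both were immunoprecipitated with an antibody against endogenous SF3B1. The extraction text of the labels names another protein, SNRBP2, while the title and the antibody name SF3B1. The deposited list gives intervals called on the pooled tags, each with a height in tags summed over both cultures at its summit, so no value has a replicate error and the depth of each library was not known. An interval was counted for a gene if it was listed under the number of that gene and its midpoint lay in the gene's span, from the start to the end of the RefSeq gene (hg38 throughout). The list held 1406 distinct intervals, of which 1306 lay in protein-coding genes. Of 8 marker genes of a mesenchymal breast cancer line, VIM, ANXA1 and AXL held an interval, as did 1 of 13 markers of other cells (CDH1, at 3 tags), so the list speaks little to the identity of the cells.

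Intervals were found in 17 of the 56 chromatin genes. That is 30.4% (exact Clopper-Pearson 95% interval 18.8 to 44.1), beside 5.27% of all protein-coding genes. Most of the 17 were lysine demethylases, lysine methyltransferases, SWI/SNF subunits or other remodellers, but these families also make up most of the list. The 17 genes held 24 distinct intervals, and the gene listed and the position matched in all 24. Members without an interval number 39. For these the list gives no height and no expected height, so they are genes with no called peak, not genes shown to be free of contact.

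Gene span was compared first, because long genes offer more sequence. The members had a median span of 88.9 kb (range 12.9 to 435 kb), whereas other protein-coding genes had a median of 24.0 kb. Among non-members, the share with an interval was 2.65% below 20 kb, 5.35% from 20 to 40 kb, 7.76% from 40 to 80 kb and 8.75% from 80 to 160 kb. It did not go higher in longer genes, at 8.61% from 160 to 320 kb and 8.36% beyond. For each member, the non-member genes of like span were then taken, such that the longer of member and gene was at most 25% longer than the shorter, which gave 350 to 2395 genes per member. On average 7.80% of these genes of like span held an interval, a rate that would give 4.37 of 56 genes. The share of members was 3.89 times that rate, a difference of 22.6 percentage points. No test was made of this difference, since the list was proposed with results of these data known. Transcript levels were not measured here, so whether they contribute to the difference was not tested. Within the set, span did not separate the genes: the 17 with an interval had a median span of 80.5 kb (20.6 to 435 kb) and the 39 without had 90.3 kb (12.9 to 353 kb).

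**Figure D1:**
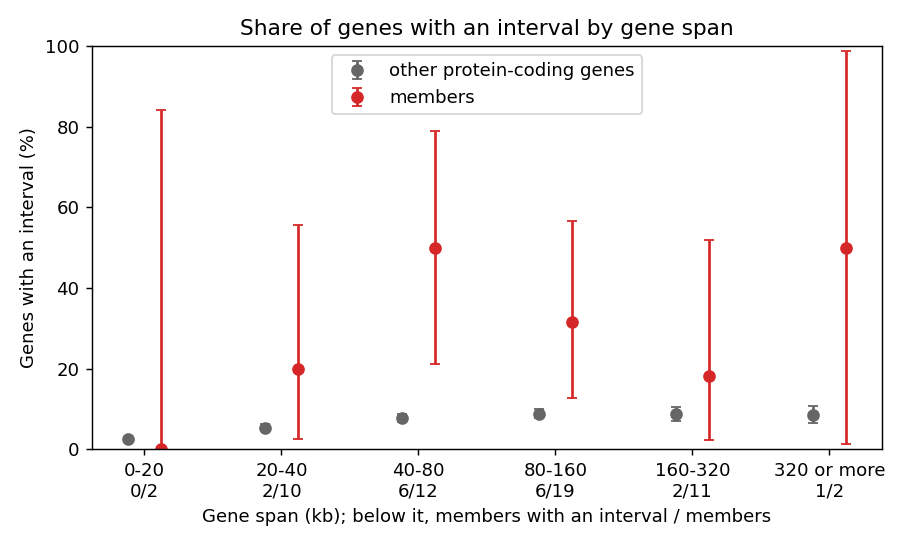
Share of genes with an interval (vertical axis, %) by gene span (horizontal axis, kb) for members and for other protein-coding genes; bars are exact 95% intervals for counting error and the fractions under the axis give members with an interval over members. The members' share was 50% (6 of 12) from 40 to 80 kb and 31.6% (6 of 19) from 80 to 160 kb, beside 7.76% and 8.75% of other genes.

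The lysine demethylases, which erase methyl marks from histones, had 5 of 11 genes with an interval, against 0.871 at the rate of like-span genes. KDM2A, a Jumonji demethylase of histone H3 lysine 36 with a zinc finger that binds CpG islands, held the tallest interval of this family, 17 tags at chromosome 11, 67181791 to 67181848 (plus strand). Only 9.34% of the intervals in protein-coding genes were as tall or taller. KDM1A (LSD1), the flavin-dependent demethylase of histone H3 lysine 4, held an interval of 7 tags at chromosome 1, 23065616 to 23065658 (plus strand). KDM4B, which acts on trimethylated histone H3 lysine 9, held a pair of 6 and 5 tags at chromosome 19, 5110582 to 5110630 and 5119296 to 5119341 (plus strand). KDM5C, an X-linked eraser of histone H3 lysine 4 methylation, held 6 tags at chromosome X, 53194573 to 53194615 (minus strand). KDM6B (JMJD3), which removes the Polycomb mark on histone H3 lysine 27, held 6 tags at chromosome 17, 7842419 to 7842460 (plus strand). No peak was listed for KDM2B, KDM4A, KDM5A, KDM5B and KDM6A, nor for KDM3A. Only 7.28% (KDM4A) to 8.92% (KDM5B) of their genes of like span held an interval, so closely related genes are not shown to differ.

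The genes grouped as lysine methyltransferases had an interval in 5 of 16, against 1.23 at the like-span rate. They held 9 of the 24 intervals, including the tallest. EZH2, the catalytic subunit of Polycomb repressive complex 2, held 3 intervals on the minus strand of chromosome 7, more than any other member. In the direction of transcription they had 22 tags (148818114 to 148818157), 12 tags (148816783 to 148816827) and 7 tags (148815524 to 148815566). The interval of 22 tags was the tallest of the set, a height reached by 5.28% of intervals in protein-coding genes. The 3 intervals lay within 2.59 kb of a gene of 76.9 kb, spaced by 1.33 and 1.26 kb, and the last of them was 8.16 kb before the gene's end. DOT1L, which methylates histone H3 lysine 79 and has no SET domain, held intervals of 15 tags (chromosome 19, 2219232 to 2219275) and 14 tags (2230118 to 2230190), both on the plus strand. NSD2, which deposits the dimethyl mark on histone H3 lysine 36, held 7 tags (chromosome 4, 1953053 to 1953095) and 15 tags (1958319 to 1958363), also on the plus strand. SETD5, a SET domain protein, held 7 tags at chromosome 3, 9447623 to 9447665 (plus strand), and EHMT1 (GLP), a methyltransferase of histone H3 lysine 9, held 6 tags at chromosome 9, 137763521 to 137763557 (plus strand). No interval was listed for any of the 5 KMT2 genes, the MLL family, most of which encode methyltransferases of histone H3 lysine 4. The same held for SETD1A, SETD1B, SETD2, NSD1, NSD3 and EHMT2. For these and the KMT2 genes, the like-span rate ran from 4.35% (EHMT2) to 9.46% (KMT2C), so having no interval does not set them apart.

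Among the members that write or erase acetylation, HDAC1 alone held an interval. None of the 4 acetyltransferase genes (EP300, CREBBP, KAT6A and KAT6B) held an interval, and 4 genes allow a share of up to 60.2% at this count. They are long genes, with a median span of 139 kb, but the like-span rate would give only 0.354 genes, so a count of 0 does not set them apart. HDAC1, a class I deacetylase found in the Sin3, NuRD and CoREST complexes, held 6 tags at chromosome 1, 32305611 to 32305652 (plus strand). HDAC2, HDAC4, HDAC5, HDAC7 and the corepressor NCOR1 held none, so 1 of these 6 genes held an interval, against 0.466 at the like-span rate.

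Remodelling complexes were represented by 6 genes. In SWI/SNF, 3 of 7 genes held an interval, against 0.530 at the like-span rate. SMARCA4 (BRG1), an ATPase of the complex, held 5 tags at chromosome 19, 11047414 to 11047455 (plus strand). ARID1B, a DNA-binding subunit and the longest gene of the set, held 5 tags at chromosome 6, 156972661 to 156972703 (plus strand). BRD9, a bromodomain subunit of the non-canonical complex whose transcript is known to be misspliced in cancers with mutant SF3B1, held 7 tags at chromosome 5, 887143 to 887194 (minus strand). That interval lay 5.63 kb from the start of a gene of 29.1 kb; exons were not annotated here, so it was not placed against the misspliced exon. SMARCA2, SMARCC1, SMARCC2 and ARID1A held none.

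Among the other remodellers, 3 of 7 genes held an interval, against 0.545 at the like-span rate. CHD2, a chromodomain helicase, held 7 and 6 tags at chromosome 15, 92942799 to 92942841 and 92945290 to 92945323 (plus strand), 2.49 kb apart in a gene of 128 kb. CHD8, a related helicase that antagonises Wnt signalling, held 7 tags at chromosome 14, 21391465 to 21391507 (minus strand). EP400, the ATPase of the TIP60 complex, held 8 and 6 tags at chromosome 12, 132039026 to 132039067 and 132064845 to 132064875 (plus strand). CHD3, CHD4, CHD7 and BAZ2A held none. Neither did the BET proteins BRD2 and BRD3, which read acetylated histones, nor DNMT3A, TET2 and TET3, which write or oxidise cytosine methylation. The like-span rate would give only 0.104 of the BET genes and 0.272 of the DNA methylation genes, so having none does not set them apart.

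**Figure D2:**
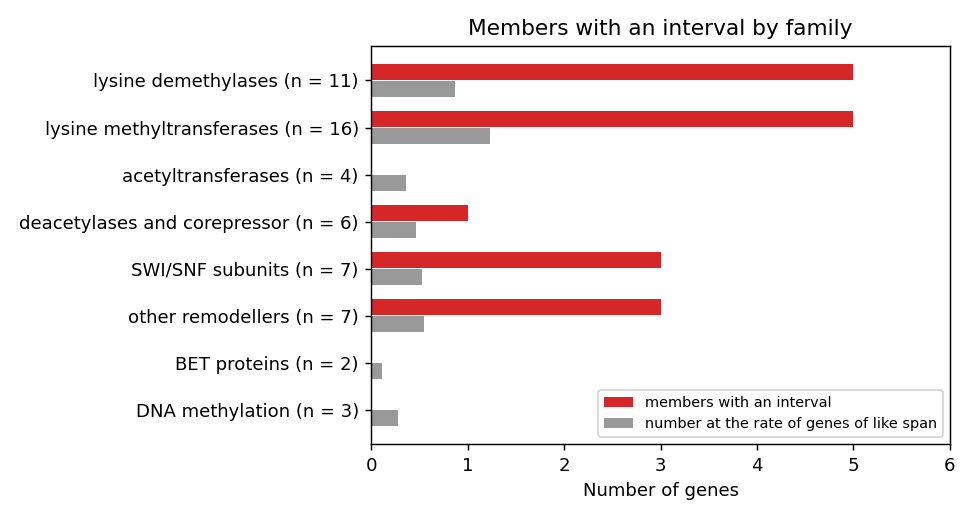
Number of members with an interval in each of 8 families (red bars) beside the number that the rate in protein-coding genes of like span would give (grey bars); the horizontal axis counts genes and n is the family's size. Demethylases and methyltransferases have 5 genes each, SWI/SNF and the other remodellers 3 each, the deacetylase group 1, and the remaining families 0.

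Several members held more than 1 interval. EZH2, DOT1L, NSD2, KDM4B, CHD2 and EP400 made up 6 of 56 members (10.7%, exact 95% interval 4.03 to 21.9). Of all protein-coding genes 0.928% held 2 or more, and of genes of like span 1.43%. This difference was not tested, since the members were listed with results of these data known. Counted only over genes with an interval, the share was 6 of 17 members (35.3%, 14.2 to 61.7) and 145 of 868 other genes within the members' span range (16.7%, 14.3 to 19.4); the counting intervals overlap. The part of the gene that the intervals covered varied among these members. The distance from the outermost to the outermost midpoint was 1.95% of the span in CHD2, 3.37% in EZH2, 4.72% in KDM4B, 4.75% in NSD2, 15.9% in DOT1L and 19.8% in EP400. The median of these 6 was 4.74%, and it was 15.1% in the 145 other genes. DOT1L and EP400 lay above that value and the other 4 below it. The 145 genes were not matched to these 6 by span or by number of intervals. In kilobases the closest neighbours were 6.99 kb apart at the median in members and 6.43 kb in the other genes.

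Most heights were low. The 24 intervals ranged from 5 to 22 tags around a median of 7, and the quartiles were 6 and 9. The 1054 intervals in other protein-coding genes of the members' span range also had a median of 7, with quartiles of 6 and 10, but reached 136. Above the median of all intervals, 7 tags, lay 7 of 24 member intervals (29.2%, exact 95% interval 12.6 to 51.1) and 42.3% (39.3 to 45.4) in the other genes. The 7 taller intervals belonged to EZH2, KDM2A, DOT1L, NSD2 and EP400, the last with 8 tags. These 5 genes were 8.93% of members (2.96 to 19.6), beside 2.42% of all protein-coding genes and 2.98% of genes of like span that held an interval above 7 tags. The same limit of a list made with results known applies here, and no test was made. The share of genes with a peak was thus higher in members than in genes of like span. The median height was equal to that in other genes of the members' span range, which were not matched to members gene by gene.

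**Figure D3:**
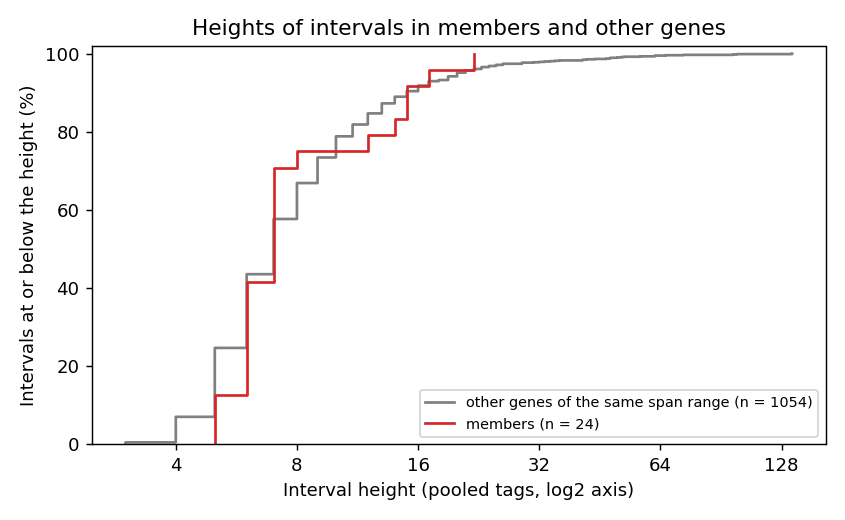
Cumulative share of intervals (vertical axis, %) at or below each height (horizontal axis, pooled tags on a log2 scale) for 24 intervals in members and 1054 in other protein-coding genes of the same span range. Both curves cross 50% at 7 tags, and the members' curve ends at 22 tags while the other runs on to 136.

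The deposited list also gives for each gene the height its authors' peak caller expected, rounded to 2 decimals. Over the 17 members it ran from 0.00 in ARID1B to 0.11 in DOT1L, with a median of 0.04, and the median in the 868 other genes was 0.03. EZH2, at 0.06, had a tallest interval 367 times the expected height, or 338 to 400 times when the rounding is allowed for. KDM2A, at 0.02, stood at 850 times (680 to 1133). DOT1L stood at 136 times (130 to 143) and NSD2 at 150 times (143 to 158). BRD9 stood lowest among the tallest intervals of a member, at 70.0 times (66.7 to 73.7), with an expected height of 0.10 for 7 tags. KDM4B, at 0.01, stood at 600 times (400 to 1200) with only 6 tags. ARID1B, with 0.00, has no ratio, but the rounding puts its 5 tags at 1000 times or more. The order by this ratio thus differed from the order by height, with KDM2A above EZH2 in the former. Among KDM2A, KDM4B and ARID1B the order is not settled, because their expected heights lie near the rounding limit.

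Position along the gene was not used to choose the set. The midpoints lay at a median of 72.8% of the span from start to end in the direction of transcription, between extremes of 19.4 and 96.5% and with quartiles of 45.2 and 85.5%. Downstream of the middle of the gene lay 17 of 24 intervals (70.8%, exact 95% interval 48.9 to 87.4). The intervals in other genes of the same span range had a median position of 66.8% and 68.6% (65.7 to 71.4) downstream of the middle, so the lean toward the 3′ side was shared. The last 10% of the span held 2 member intervals, in CHD8 (91.1%) and DOT1L (96.5%), which is 8.33% of 24 beside 18.4% in the other genes. The first 10% held 0, beside 5.22%. The methyltransferase intervals all lay downstream of the middle, from SETD5 at 62.1% to DOT1L at 96.5%. BRD9 at 19.4%, HDAC1 at 32.6% and the pair of CHD2 at 33.3 and 35.2% lay furthest upstream.

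**Figure D4:**
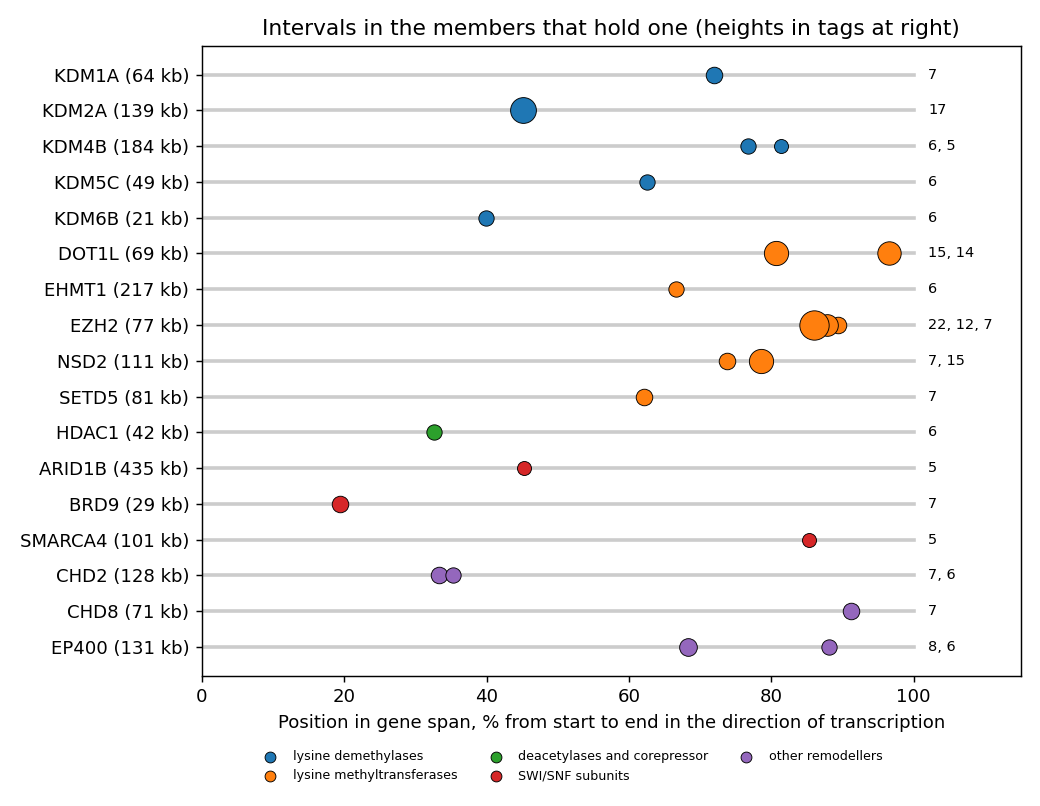
Position of each interval in the 17 members that hold one, as % of the gene span from start to end in the direction of transcription (horizontal axis); each row is a gene with its span in kb, circle area is proportional to height, colour marks the family and the numbers at the right give heights in tags from start to end. The 3 intervals of EZH2 lie together at 86.0 to 89.4% of the span, and BRD9, HDAC1 and CHD2 hold the intervals nearest the start.

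None of the 24 intervals overlapped a promoter window of the RefSeq table used, taken as 250 bases before to 50 after a start. The table gives starts for 48 of the 56 members and none for DOT1L, so the gene's own start was compared for 22 of the 24. Measured from the closest listed start upstream of it, the shortest distance among these 22 was that of KDM6B, 2.52 kb from an internal start, followed by BRD9 at 5.38 kb. All 22 intervals of members with a listed direction were on the strand of the gene. So were all 1086 intervals in protein-coding genes with a listed direction, so the match belongs to the whole list and not to the members. In 3 cases the midpoint also lay in another gene, always on the opposite strand: LOC107984643 at CHD8, PLEKHJ1 at the downstream interval of DOT1L and LOC124904106 at KDM6B. None of these was listed under the other gene, but no interval in a protein-coding gene of listed direction was listed against its strand. No member interval lay at an rRNA gene, a small noncoding RNA gene or a pseudogene of these. Widths ran from 31 nt in EP400 to 73 nt in DOT1L, with a median of 43 nt, the median in the other genes too.

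A list of 123 further genes of chromatin regulators was counted beside the members. It held an interval in 17 genes, 13.8% (exact 95% interval 8.26 to 21.2), against 6.72% of genes of like span. Here the ratio was 2.06, below the 3.89 of the members, but no interval was computed for either ratio. The counting intervals of the shares themselves overlap (18.8 to 44.1% for members). TRIM28, the corepressor of KRAB zinc finger proteins, held 14 tags and SETD4 8. TRRAP, the scaffold of acetyltransferase complexes, held 3 intervals of 5 to 6 tags, and HELLS, a remodeller needed for DNA methylation, 2 of 6 to 7. ASXL1, HDAC6 and NCOA3 held 7 tags each, ATRX and KMT5B 6, ASH1L, GATAD2A, RBBP4 and SMYD2 5, and RSF1 and RUVBL1 4. DNMT1, the maintenance DNA methyltransferase, held 4 intervals of up to 34 tags, taller than any in a member. Its relative DNMT3A, a member, had none, but only 9.22% of genes of like span to DNMT3A held an interval.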

How the data were processed

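The authors pooled the HITS-CLIP tags of 2 biological replicates and called significant peaks, so the deposited signal of a peak is its height in pooled tags, counted on unique tags and not normalized, per the file's name and values. The submitters' processing notes name the tools BWA 0.7.17 and cutadapt 2.3 and the build hg38. Which program called the peaks is not given in the sources used here. No p-value that the authors' peak calling lists exceeds 0.0499. Among member intervals the largest was 0.0121, for SMARCA4, so that call was the weakest of them by this measure.

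Rows with the same position and strand were counted once, and genes were named through RefSeq (GRCh38.p14). Shares have exact Clopper-Pearson 95% intervals, which cover counting error only and treat the units counted as independent. Those units are genes, or peak intervals for the shares by height and by position. The 24 member intervals came from 17 genes, so intervals of the same gene were treated as independent there. The like-span calculation was tested on simulated data, in which the chance of an interval depended on span alone or was raised in members. Such data check the calculation, not whether genes of like span are a sufficient comparison. All members were named, by rule, as were listed chromatin genes with an interval, except for what is not reported here. The members and lists were chosen with earlier results of these data known. No genome sequence or exon annotation was used. Computation ran in Python 3.11.15 with scipy 1.17.1, pandas 2.3.3 and numpy 2.4.6, and plots were drawn with matplotlib 3.10.9.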

Additional observations from a re-analysis of the deposited data

How the results depend on the processing

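Restricting the list to intervals above the median height changed most values: 5 members with an interval (8.93%), 7 intervals in members with a median of 15 tags, 4 of the further chromatin genes, and 2.98% of genes of like span. The position along the gene moved to 80.6%, within its counting interval. Merging intervals within 50 nt, accepting any overlap and dropping intervals at small RNA genes left 17 members, as did the gene numbers as listed, which gave 18 further chromatin genes and a like-span rate of 8.04%. Leaving out the intervals that share their midpoint with another gene, an alternative chosen after seeing the data, left 15 members (26.8%) and 21 intervals. With the width of the like-span window at 1.1 or 1.5 times, the rate was 7.74 or 7.79%. Without EZH2, the median position was 68.3% and the median height 7 tags. With only the tallest interval of each member, the median position was 66.6% and the median height again 7 tags. No paired analysis was possible because the deposited list pools both replicates; for the same reason no replicate could be left out, and peaks under the authors' threshold are not seen.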

Other observations

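By chromosome, 3 of 4 members on chromosome 19 held an interval (DOT1L, KDM4B and SMARCA4, but not KMT2B), beside 51 of 1447 other protein-coding genes there (3.52%). On chromosome 12, 1 of 9 members did (EP400), beside 65 of 1015 other genes (6.40%). These counts were picked after their values were seen, and no test was made.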
